A study of Mus musculus with 9 samples.

Results

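The genes described here are the 5 long-chain acyl-CoA synthetases Acsl1, Acsl3, Acsl4, Acsl5 and Acsl6 and the 3 membrane-bound lysophospholipid acyltransferases Lpcat3, Mboat1 and Mboat2, followed through 9 mouse breast tumours. They were chosen by symbol, and all 8 were found among the 49585 genes of the count table. The tumours were spontaneous breast adenocarcinomas, and their RNA was sequenced as a whole. In 6 tumours, labelled AAV-delta-mut-p53, an adeno-associated virus (AAV) was given to delete mutant p53. The 3 others, labelled AAV-Control, received a control virus. Virus was given on days 0, 3 and 8, and tumours were taken when the animals reached the point of euthanasia. The same genotype is given for every tumour, controls included. It holds K14-Cre, a recombinase driven by the keratin 14 promoter of basal epithelium. It also holds Trp53wm-R172H/fl, a p53 genotype with the R172H missense mutation, and a Cre-dependent Rosa26LSL cassette for CAS9-P2A-EGFP on a single allele. The labels do not say which cells carry R172H or which took up the virus. Each value is the RNA of a piece of tumour, so fewer cells of a type and less RNA per cell cannot be told apart.

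Acyl-CoA synthetases attach coenzyme A to a free fatty acid, which is the step that lets the acid enter phospholipids, triglycerides or oxidation. Lysophospholipid acyltransferases then place the activated acyl chain on a lysophospholipid of the membrane. Ferroptosis is a death of cells by peroxidation of polyunsaturated phospholipids, so enzymes that load polyunsaturated chains (Acsl4, then Lpcat3) are known to promote it, and enzymes that load monounsaturated chains (Acsl3, Mboat1 and Mboat2) are known to restrain it, mostly from work in human cell lines. All of this is background and none of it was measured here, since RNA counts give neither enzyme activity nor lipids.

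Libraries held 18581545 to 24567423 counts in AAV-delta-mut-p53 tumours and 26280250 to 30953250 counts in AAV-Control tumours. Levels are given as CPM, the part of a library that a gene's counts make up on a fixed scale after TMM scaling, and n is 6 AAV-delta-mut-p53 and 3 AAV-Control tumours in every mean ± SD. RNA of Trp53, the targeted gene, was 32.4 ± 11.9 CPM in AAV-delta-mut-p53 tumours and 43.4 ± 4.71 CPM in AAV-Control tumours, a log2 fold change of -0.42 that did not pass edgeR's test (FDR = 0.780). AAV-delta-mut-p53 2 stood apart from the other tumours. Its 12 skeletal muscle marker genes summed to 42177 CPM, against 39.0 to 413 CPM in the other AAV-delta-mut-p53 tumours and 48.1 to 163 CPM in AAV-Control tumours. Its 12 mammary luminal markers summed to 450 CPM, against 1270 to 4754 CPM in the other AAV-delta-mut-p53 tumours and 1673 to 3495 CPM in AAV-Control tumours.

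Of the 8 genes, 7 had enough counts to be tested and 0 differed between the groups at a false discovery rate (FDR) of 0.05 in edgeR's quasi-likelihood test. Over all 19606 tested genes edgeR called 0 as well (0.0%). By edgeR an unadjusted p below 0.05 was found for 0 of the 7, while 7.07% of all tested genes had one (3.82% higher and 3.26% lower). By DESeq2 it was found for 1 of the 7, Acsl4, and for 1922 of all 19606 tested genes. DESeq2 called 104 genes at FDR 0.05 (0.53% of those tested) and 0 of the 7. Levels were higher on average in AAV-delta-mut-p53 tumours for 6 genes and lower for 1, with a median log2 fold change of 0.34, against 0.09 over all tested genes, of which 55.6% were higher. For 0 of the 7 did the groups stand clear of each other, as they did for 3.06% of all tested genes (1.47% higher and 1.59% lower).

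**Figure D1:**
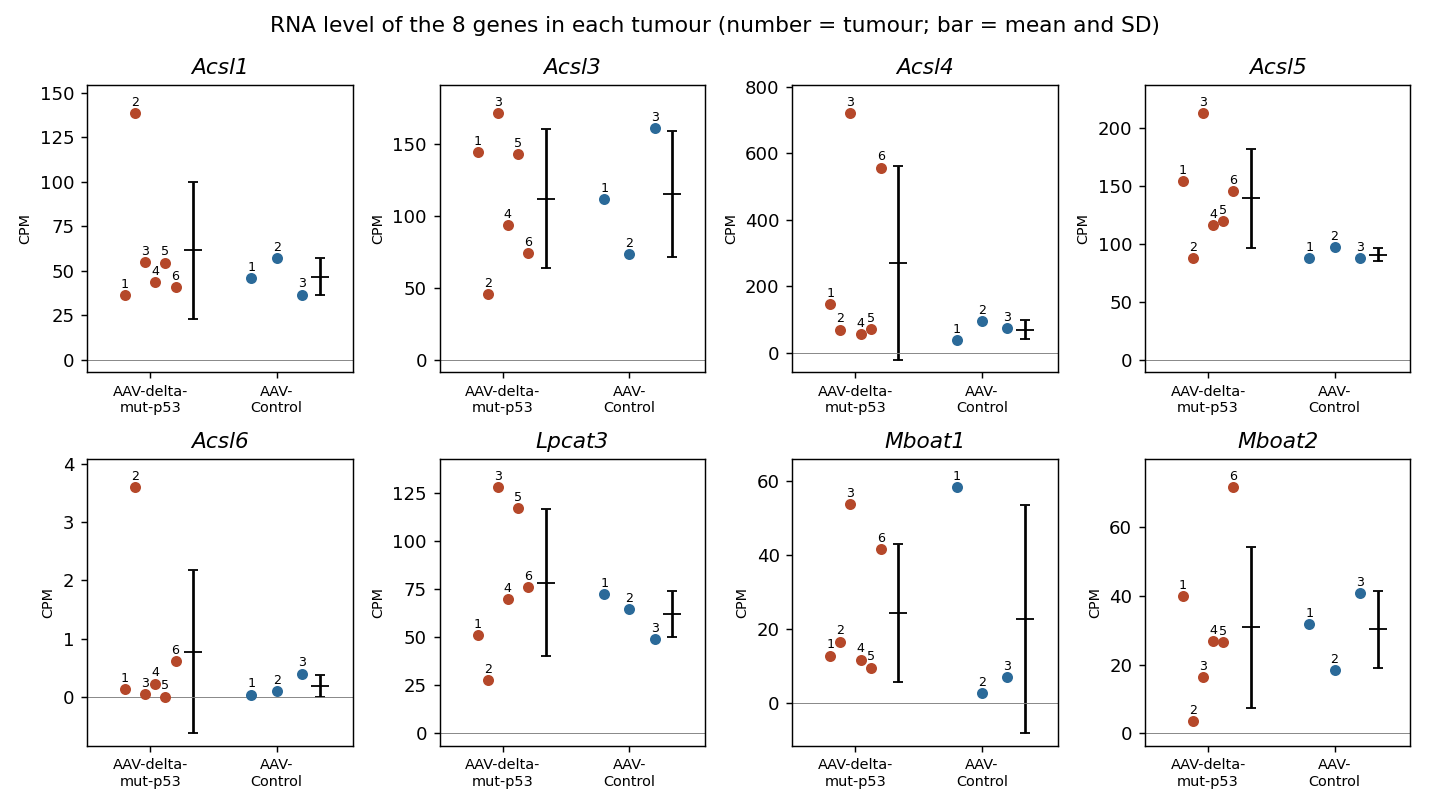
Each panel plots 1 gene, with its RNA level in CPM on the vertical axis and 1 point per tumour, numbered within its group, beside the mean and SD. Acsl4 in AAV-delta-mut-p53 3 and 6, at 720 and 557 CPM, and Acsl1 in AAV-delta-mut-p53 2, at 138 CPM, lie far above the other tumours.

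**Figure D2:**
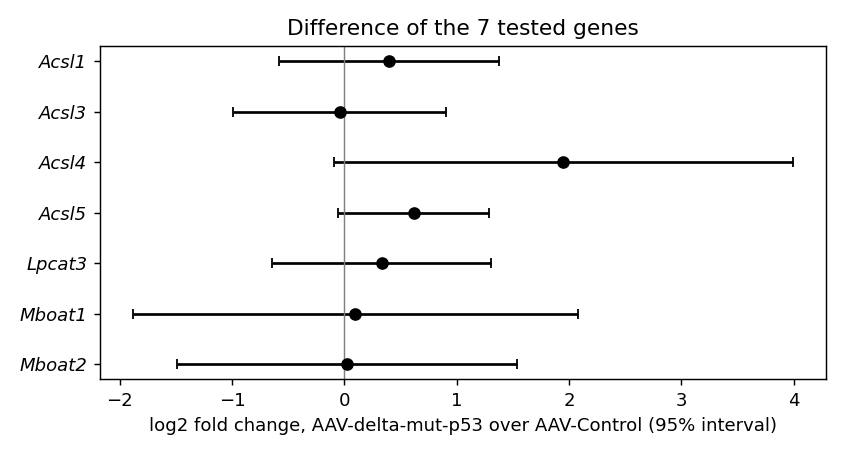
Points are log2 fold changes of AAV-delta-mut-p53 over AAV-Control from edgeR for the 7 tested genes, and bars are 95% confidence intervals. Every interval includes 0, with Acsl4 at -0.09 to 3.99 and Acsl5 at -0.06 to 1.29 the nearest to leaving it.

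Acsl4, the synthetase that prefers arachidonic and adrenic acid, varied widely between tumours. It had 147, 70.5, 720, 57.9, 72.8 and 557 CPM in AAV-delta-mut-p53 1 to 6, against 38.9, 96.7 and 74.1 CPM in AAV-Control 1 to 3. AAV-delta-mut-p53 1, 3 and 6 lay above every control, and the other 3 lay inside the control range, so the groups overlapped. The mean was 271 ± 291 CPM in AAV-delta-mut-p53 tumours, where the median was 110 CPM, and 69.9 ± 29.2 CPM in AAV-Control tumours. The log2 fold change was 1.95 (SE 0.92) and the FDR by edgeR was 0.677. In DESeq2 the log2 fold change was 1.96 with an FDR of 0.351. Across the 9 tumours the SD of log2(CPM + 1) was 1.45, which exceeded that of 95% of the 1953 tested genes with a mean level within 2-fold of its own. That SD was the largest of the 7 tested genes. The highest tumour held 18.5 times the CPM of the lowest, a range that Mboat1 (22.1 times) and Mboat2 (20.4 times) exceeded.

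Acsl4 (ENSMUSG00000031278.12) lies on the minus strand of chromosome X, from 142317993 to 142390535 on GRCm38. The 250 bases before its RefSeq start are shown because it had the largest SD of log2(CPM + 1) among the 7 tested genes, and those of Acsl3 because it is the counterpart that loads monounsaturated acids. Both windows come from RefSeq on GRCm38.p6 and are written 5′ to 3′ on the strand of the gene, with capitals for the motifs found. The Acsl4 window is chrX:142390536-142390785 on the minus strand and the Acsl3 window is chr1:78657575-78657824 on the plus strand.
Acsl4: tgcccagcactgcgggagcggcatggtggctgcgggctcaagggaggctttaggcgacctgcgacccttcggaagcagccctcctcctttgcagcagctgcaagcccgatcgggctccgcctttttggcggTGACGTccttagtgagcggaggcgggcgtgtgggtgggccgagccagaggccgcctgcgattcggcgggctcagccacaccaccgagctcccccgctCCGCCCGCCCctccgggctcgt
Acsl3: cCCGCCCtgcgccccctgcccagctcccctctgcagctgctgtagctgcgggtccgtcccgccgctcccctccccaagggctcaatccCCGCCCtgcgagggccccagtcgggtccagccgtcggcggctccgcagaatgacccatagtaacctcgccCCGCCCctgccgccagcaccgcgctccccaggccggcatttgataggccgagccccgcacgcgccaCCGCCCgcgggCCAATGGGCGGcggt
The Acsl4 window was 70.8% G and C, and that of Acsl3 75.6%, against a median of 52.4% over 32851 RefSeq windows. The capitals in Acsl4 are TGACGT, a part of the cAMP response element, at positions -119 to -114 from the start and a pair of GC boxes, GGGCGG on the other strand, at -22 to -17 and -18 to -13, which overlap. The capitals in Acsl3 are 5 GC boxes and 1 CCAAT box, the last of which adjoins a GC box at -10 to -5 without overlap. On either strand, GGGCGG was found in 32.7% of all windows, CCAAT in 33.8% and TGACGT in 6.47%. Among the 11 windows of the 8 genes, 9 held a GC box and 8 a CCAAT box, while TGACGT was in that of Acsl4 and in no other. The search also covered CACGTG (6.02% of all windows), TATAAA (12.4%) and TGACNNNGC (10.2%). Of these, TGACNNNGC was in 1 of the 11 windows, from Acsl6, and the others were in 0.

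The tested genes nearest to Acsl4 did not share its high tumours. Tmem164, which starts 363.4 kb further along the chromosome and encodes an acyltransferase of ether phospholipids known from human cells, had 51.7, 47.9, 45.5, 50.7, 88.5 and 59.3 CPM in AAV-delta-mut-p53 1 to 6, against 49.0, 149 and 56.1 CPM in AAV-Control 1 to 3. Nxt2, an RNA export factor, had 27.2, 20.5, 21.7, 24.8, 30.1 and 3.06 CPM in AAV-delta-mut-p53 tumours, against 27.8, 82.2 and 43.0 CPM in AAV-Control tumours. In AAV-delta-mut-p53 6, the tumour with the second-highest Acsl4, Nxt2 was thus at its lowest of the 9. Kcne1l had its highest level, 45.6 CPM, in AAV-Control 2, Chrdl1 had 339 CPM in AAV-delta-mut-p53 2 and at most 3.45 CPM elsewhere, and Irs4 and Ammecr1 had log2 fold changes of -2.11 and -0.66. None of the 6 neighbours passed in edgeR, where the lowest FDR among them was 0.677.

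**Figure D3:**
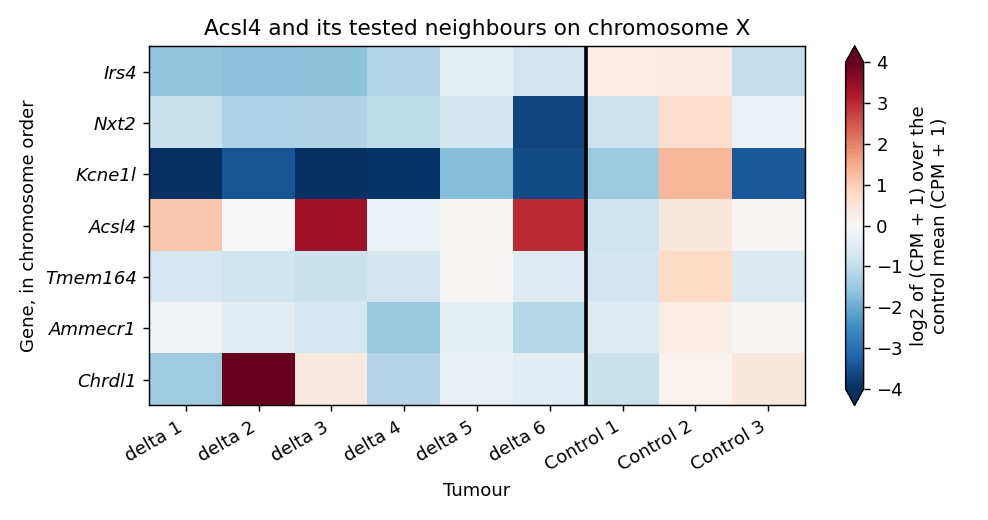
Colours give, for each tumour (columns) and gene (rows, in chromosome order), the log2 of CPM + 1 over the mean CPM + 1 of AAV-Control tumours. Values beyond 4 in either direction share the end colour. The 2 darkest red cells of the Acsl4 row, AAV-delta-mut-p53 3 and 6, have no like cell in the rows above or below in those tumours.

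Summed levels of neutrophil marker genes differed between tumours, and their order depended on a single gene. The 12 listed genes, all of them measured and none at 0 in every tumour, summed to 357, 62.8, 504, 138, 70.8 and 462 CPM in AAV-delta-mut-p53 1 to 6, against 23.4, 9.54 and 74.7 CPM in AAV-Control 1 to 3. The 3 highest sums were those of AAV-delta-mut-p53 1, 3 and 6, where Acsl4 exceeded every control. A large part of each was Ltf, the lactoferrin gene, which mammary epithelium also uses, at 233, 263 and 390 CPM in those 3 tumours. Without Ltf the other 11 genes summed to 123, 56.6, 241, 112, 59.3 and 71.9 CPM in AAV-delta-mut-p53 1 to 6, against 17.2, 5.90 and 71.0 CPM in AAV-Control 1 to 3. AAV-delta-mut-p53 6, with 557 CPM of Acsl4, then came close to AAV-Control 3, with 74.1 CPM of Acsl4. In AAV-delta-mut-p53 6, S100a8 and S100a9 were 6.36 and 11.1 CPM, against 17.4 and 21.8 CPM in AAV-Control 3. Csf3r (13.9 against 7.33 CPM), Il1b (26.1 against 7.29), Acod1 (5.01 against 2.30) and Cxcr2 (4.44 against 4.20) went the other way. Retnlg, Mmp8, Camp, Ngp and Ly6g, the rest of the 11, were lower in AAV-delta-mut-p53 6 than in AAV-Control 3. The neutrophil surface gene Ly6g was at most 0.342 CPM in any tumour. For AAV-delta-mut-p53 1, 3 and 6, the receptor gene Cxcr2 was 3.28, 19.4 and 4.44 CPM, against 1.51, 0.534 and 4.20 CPM in AAV-Control 1 to 3. The part of neutrophils in the Acsl4 levels was not tested.

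Acsl3, the synthetase of the endoplasmic reticulum and lipid droplets, did not separate the groups. It had 144, 45.6, 172, 93.8, 143 and 74.3 CPM in AAV-delta-mut-p53 1 to 6, against 112, 73.3 and 161 CPM in AAV-Control 1 to 3. Only AAV-delta-mut-p53 3 lay above all controls and only AAV-delta-mut-p53 2 below all of them. The log2 fold change was -0.04 (95% interval -0.99 to 0.91, edgeR FDR = 0.984), and its sign turned with the tumours left out. Acsl3 (ENSMUSG00000032883.15, chromosome 1, 78657825 to 78707743) shares exon sequence on the same strand with Utp14b, so reads of that pair may have been split in counting.

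Acsl5, a synthetase of mitochondria and endoplasmic reticulum best known from the intestine, had the narrowest spread of the 7 tested genes. It had 154, 87.5, 212, 116, 120 and 146 CPM in AAV-delta-mut-p53 1 to 6, against 87.5, 97.1 and 87.3 CPM in AAV-Control 1 to 3. Every AAV-delta-mut-p53 tumour except number 2 lay above all controls. The mean was 139 ± 42.8 CPM in AAV-delta-mut-p53 tumours and 90.6 ± 5.59 CPM in AAV-Control tumours, a log2 fold change of 0.62 (SE 0.31) that did not pass edgeR's test (FDR = 0.677). Without AAV-delta-mut-p53 2 it was 0.73 with an FDR of 0.540. Its SD on the log2 scale was 0.44, below the median of 0.52 among genes of like level. Acsl5 (ENSMUSG00000024981.5, chromosome 19, 55251938 to 55297720) overlaps Zdhhc6 on the other strand, and it is not stated whether the counting used strand.

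Acsl1, the main form of fat, heart and liver, had 36.2, 138, 54.7, 43.7, 54.6 and 41.0 CPM in AAV-delta-mut-p53 1 to 6, against 45.9, 57.3 and 36.6 CPM in AAV-Control 1 to 3. All AAV-delta-mut-p53 tumours but number 2 were below the highest control. The log2 fold change was 0.40 (SE 0.44, edgeR FDR = 0.825). It was -0.011 once AAV-delta-mut-p53 2 was left out. The 12 adipocyte markers summed to 549 CPM in that tumour and to 18.3 to 90.3 CPM in the other AAV-delta-mut-p53 tumours, against 21.1 to 71.0 CPM in AAV-Control tumours, with none at 0 throughout. Its muscle sum stands above. The part of fat or muscle in its Acsl1 level was not tested.

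Acsl6, the form best known from brain, was close to absent and was not tested. It had 3, 78, 1, 4, 0 and 15 counts in AAV-delta-mut-p53 1 to 6, against 1, 3 and 10 counts in AAV-Control 1 to 3. The 78 counts, equal to 3.60 CPM, came from AAV-delta-mut-p53 2, the tumour with the muscle and fat markers. Elsewhere it stayed at or under 0.611 CPM, and per length it was the lowest of the 8 genes in all 9 tumours, or in 8 of them with the longest transcript as length.

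The make-up of the synthetase pool varied widely between tumours of the same group. For this, levels were divided by exon length and brought to a fixed total per tumour (TPM), and each synthetase was taken as a share of the summed TPM of the 5. Acsl4 made up 28.5, 23.7, 60.2, 17.8, 17.7 and 66.9% of the sum in AAV-delta-mut-p53 1 to 6, against 13.0, 29.7 and 19.0% in AAV-Control 1 to 3. It was the largest share in AAV-delta-mut-p53 3 and 6 and in no other tumour. The mean share of Acsl4 was 35.8 ± 22.0% in AAV-delta-mut-p53 tumours and 20.6 ± 8.48% in AAV-Control tumours. Acsl3 averaged 26.9 ± 12.6% in AAV-delta-mut-p53 tumours and 41.9 ± 12.3% in AAV-Control tumours. Acsl5 averaged 29.5 ± 8.13% in AAV-delta-mut-p53 tumours, against 30.2 ± 4.65% in AAV-Control tumours, and Acsl1 averaged 7.71 ± 8.23% in AAV-delta-mut-p53 tumours, against 7.29 ± 2.20% in AAV-Control tumours. These shares were not tested, and for each of the 4 the ranges of the groups overlapped. Acsl1 reached 24.0% in AAV-delta-mut-p53 2 and stayed at or under 9.08% elsewhere. The shares of Acsl1 depend on the length used. Its annotated exons joined, the length used here, are 10483 bases, and its longest transcript is 3897 bases. With the latter its share is larger in every tumour, and the values were not worked out. The ratio of Acsl4 to Acsl3, both in TPM, was 0.822, 1.25, 3.38, 0.498, 0.410 and 6.04 in AAV-delta-mut-p53 1 to 6, against 0.281, 1.06 and 0.370 in AAV-Control 1 to 3. With the longest transcript as length, the ratio in AAV-Control 2 was 0.987, while the 3 AAV-delta-mut-p53 tumours above 1 stayed above it. The summed TPM of the 5 synthetases was 213, 138, 527, 96.0, 189 and 396 in AAV-delta-mut-p53 tumours, against 115, 101 and 176 in AAV-Control tumours.

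**Figure D4:**
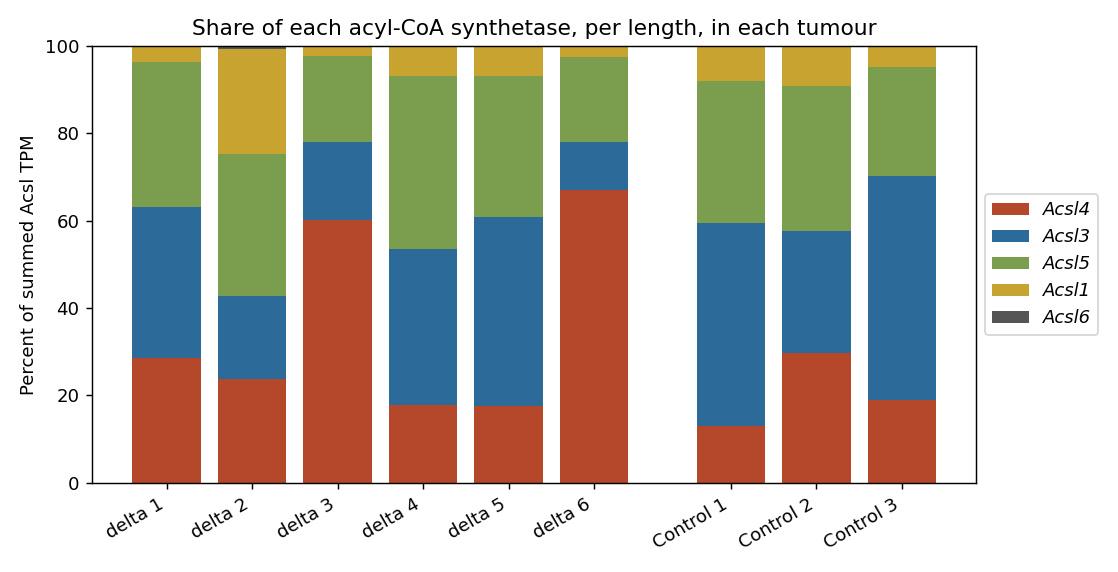
Stacked bars give each synthetase as a percentage of the summed TPM of the 5 in each tumour (delta stands for AAV-delta-mut-p53, Control for AAV-Control). The Acsl4 segment reaches 60.2% and 66.9% in AAV-delta-mut-p53 3 and 6, against 13.0 to 29.7% in AAV-Control tumours.

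The order of the 8 genes by TPM changed from tumour to tumour. Acsl3 came first in AAV-delta-mut-p53 1 and in AAV-Control 1 and 3, with 73.9, 53.4 and 90.3 TPM. Acsl5 came first in AAV-delta-mut-p53 2 and 4 and in AAV-Control 2, with 45.1, 38.0 and 33.6 TPM. Acsl4 came first in AAV-delta-mut-p53 3 and 6, with 317 and 265 TPM, and Lpcat3 in AAV-delta-mut-p53 5, with 88.8 TPM. This order depends on the length used. All annotated exons joined and the longest transcript are 4864 and 4243 bases for Acsl5, and 3268 and 2281 for Lpcat3. For Acsl1 they are 10483 and 3897 bases. With the longest transcript, Acsl4 still came first in 2 tumours, but the first gene of some other tumours changes. The full order was not worked out in that way. Means of TPM also carry the scaling per tumour described above. By mean TPM, the order in AAV-delta-mut-p53 tumours was Acsl4 (121 ± 133), Acsl5 (65.9 ± 23.7), Acsl3 (58.9 ± 27.7), Lpcat3 (55.3 ± 30.3), Mboat1 (15.8 ± 12.9), Acsl1 (13.8 ± 9.78), Mboat2 (7.49 ± 6.42) and Acsl6 (0.191 ± 0.357). In AAV-Control tumours it was Acsl3 (57.4 ± 31.2), Lpcat3 (38.7 ± 6.74), Acsl5 (38.3 ± 5.11), Acsl4 (26.2 ± 9.84), Mboat1 (13.0 ± 17.6), Acsl1 (8.95 ± 0.374), Mboat2 (6.86 ± 3.57) and Acsl6 (0.0406 ± 0.0494). In both orders the mean ± SD of neighbours overlapped, apart from that of Acsl6 and the gene above it. Acsl4 thus stood first by mean in the AAV-delta-mut-p53 group and the fourth in the AAV-Control group, with an SD larger than its mean in the first of these.

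Lpcat3, which places arachidonic acid on phosphatidylcholine and phosphatidylethanolamine, had 50.9, 27.9, 128, 69.9, 117 and 76.1 CPM in AAV-delta-mut-p53 1 to 6, against 72.5, 64.5 and 48.9 CPM in AAV-Control 1 to 3. AAV-delta-mut-p53 3, 5 and 6 lay above the controls and AAV-delta-mut-p53 2 below them. The log2 fold change was 0.34 (95% interval -0.64 to 1.31, edgeR FDR = 0.856). Lpcat3 (ENSMUSG00000004270.13, chromosome 6, 124663027 to 124704418) overlaps Emg1 on the other strand.

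Mboat1 and Mboat2, which prefer oleic acid and lysophosphatidylethanolamine, varied widely in both groups. Mboat1 (chromosome 13, 30136489 to 30246717) had 12.7, 16.5, 53.8, 11.6, 9.43 and 41.6 CPM in AAV-delta-mut-p53 1 to 6, against 58.3, 2.63 and 6.89 CPM in AAV-Control 1 to 3. A control held both the highest and, in another tumour, the lowest value of the 9, so the AAV-delta-mut-p53 tumours lay inside the control range. The log2 fold change was 0.10 (95% interval -1.88 to 2.08, edgeR FDR = 0.982), and 2.34 (FDR = 0.860) without AAV-Control 1. Mboat2 (chromosome 12, 24830879 to 24964397) had 40.0, 3.51, 16.5, 26.8, 26.6 and 71.6 CPM in AAV-delta-mut-p53 tumours, against 31.9, 18.4 and 40.8 CPM in AAV-Control tumours. AAV-delta-mut-p53 6 was above the controls, AAV-delta-mut-p53 2 and 3 were below them, and the log2 fold change was 0.02 (95% interval -1.49 to 1.54, edgeR FDR = 0.994). The SD of log2(CPM + 1) was 1.36 for Mboat1 and 1.12 for Mboat2, above 91.6% and 86.6% of tested genes of like level.

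Lpcat3 was the main acyltransferase of the 3 per length in every tumour. It made up 67.1, 63.6, 70.4, 78.2, 87.0 and 55.3% of their summed TPM in AAV-delta-mut-p53 1 to 6, against 53.5, 88.2 and 70.9% in AAV-Control 1 to 3. The mean share was 70.3 ± 11.1% in AAV-delta-mut-p53 tumours and 70.9 ± 17.3% in AAV-Control tumours. In human cancer cells MBOAT1 is a known target of the oestrogen receptor. Here Esr1, the oestrogen receptor gene, had 0.764, 71.8, 7.82, 1.45, 10.1 and 17.8 CPM in AAV-delta-mut-p53 1 to 6, against 42.4, 7.57 and 5.86 CPM in AAV-Control 1 to 3. AAV-delta-mut-p53 2, with the most Esr1, had 16.5 CPM of Mboat1, and AAV-Control 1, with the next most Esr1, had the most Mboat1, at 58.3 CPM. The relation of Esr1 and Mboat1 was not tested.

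Among the 28 pairs of the 8 genes, log2(CPM + 1) was correlated across the 9 tumours at an unadjusted p below 0.05 for 5 pairs and at an adjusted one for 1. That pair was Acsl1 and Mboat2, which ran in opposite directions (Pearson r = -0.94, exact permutation p = 0.00140, adjusted p = 0.0392, n = 9 tumours). Spearman's rho was -0.90 with an exact permutation p of 0.00203 and an adjusted p of 0.0568. Without the 2 tumours farthest from the median of Acsl1, AAV-delta-mut-p53 2 and 1, r was -0.78, and within the 6 AAV-delta-mut-p53 tumours it was -0.93. The group of AAV-Control tumours was too small for a value of its own. Without AAV-delta-mut-p53 2 alone, r was -0.77 and the adjusted permutation p was 0.223. Leaving out any other tumour except AAV-delta-mut-p53 6 also brought the adjusted p to 0.05 or above. A further pair of the 5, Acsl4 and Acsl5, had its highest levels in AAV-delta-mut-p53 3, with r = 0.84 (exact permutation p = 0.00432, adjusted p = 0.0604, n = 9 tumours). Its rho was 0.70. Without AAV-delta-mut-p53 3 and 6, the farthest from the median of Acsl4, r was 0.64 over 7 tumours. The other 3 pairs were Acsl6 with Lpcat3 (r = -0.77), Acsl3 with Acsl6 (-0.74) and Acsl1 with Acsl3 (-0.68), with adjusted permutation p of 0.134, 0.146 and 0.231. Without the 2 tumours farthest from the median of the first gene, which include AAV-delta-mut-p53 2 each time, r was -0.71, -0.27 and -0.01. Acsl6 had at most 15 counts outside AAV-delta-mut-p53 2.

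**Figure D5:**
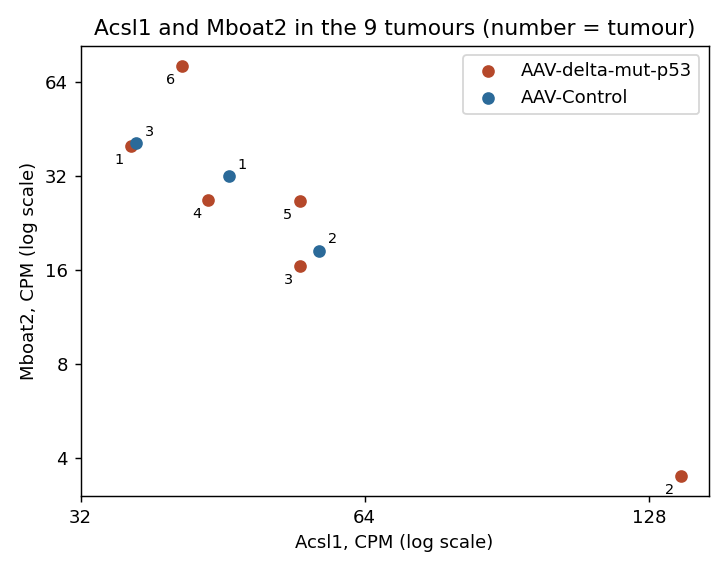
Each point is a tumour, placed by Acsl1 (horizontal) and Mboat2 (vertical), both in CPM on log scales and numbered within its group. AAV-delta-mut-p53 2, at 138 CPM of Acsl1 and 3.51 CPM of Mboat2, lies far from the other 8, which run from upper left to lower right.

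The genes most like each of the 7 tested ones over the 9 tumours were sought among 11474 protein-coding genes by Pearson r of log2(CPM + 1). They are listed as a description, since many genes follow the same few tumours. Nearest to Acsl4 were Rbm47 (r = 0.957), Car2 (0.946), Sptan1 (0.945) and Emc7 (0.940), and 21 genes reached 0.9. Rbm47, an RNA-binding protein of epithelium, had 66.3, 25.5, 127, 32.5, 35.6 and 103 CPM in AAV-delta-mut-p53 1 to 6, against 25.5, 37.3 and 24.8 CPM in AAV-Control 1 to 3, and so shared the 3 high tumours of Acsl4. Car2, a carbonic anhydrase, was also highest in AAV-delta-mut-p53 3 and 6, at 183 and 281 CPM, and was at most 43.6 CPM in the others.

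Acsl1 had the most followers, with 103 genes at r of 0.9 or more. They were led by Cd248, a marker of stromal and perivascular cells, with 76.8 CPM in AAV-delta-mut-p53 2 and 9.58 to 19.5 CPM in the other tumours, and by Mfap5 (r = 0.978), Pck1 (0.978) and Srpx2 (0.975). Pck1, which makes glycerol for triglycerides in fat, had 36.7 CPM in AAV-delta-mut-p53 2 and at most 3.71 CPM elsewhere. Nearest to Acsl5 were Osbpl7 (0.982), Rin2 (0.965), Dnajc5 (0.960) and Gmeb2 (0.958), and nearest to Acsl3 were Fam135a (0.973), Metap1 (0.966), Krt79 (0.959) and Clpx (0.947). Lpcat3 ran with Cand1 (0.980), Tmem101 (0.972), Copg2 (0.962) and Tmem209 (0.959). Mboat1 ran with Med11 (0.942), Arg2 (0.942) and the ribosomal protein genes Rpl35a (0.938) and Rpl29 (0.925), of which Rpl35a had 154 CPM in AAV-Control 1 and 15.9 CPM in AAV-Control 2, the controls with the most and the least Mboat1. Mboat2 ran with Casp6 (0.958), Zbtb22 (0.936) and Cdcp1 (0.932). Cdcp1, a surface protein of epithelium, was lowest in AAV-delta-mut-p53 2, at 12.8 CPM, where Mboat2 was lowest too.

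The wider pathway was followed through 7 lists of 124 genes in all, of which 98 were tested. None was called, by edgeR or by DESeq2, at FDR 0.05. By edgeR an unadjusted p below 0.05 was found for 5 genes, all higher in AAV-delta-mut-p53 tumours. That is 5.10% of the 98, against 7.07% of all tested genes. The count fell to 0 without AAV-Control 2, to 1 without AAV-Control 1 and to 2 without AAV-delta-mut-p53 6, and it was 9 without AAV-delta-mut-p53 2. The groups stood clear of each other for 1 of the 98, Gnpat, against 3.06% of all tested genes.

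Of 12 tested members of other acyl-CoA synthetase families, 11 lay higher and 1 lower in the AAV-delta-mut-p53 group. Their median log2 fold change was 0.20, against 0.09 over all tested genes, and 0 were past the FDR threshold. Acss1, the mitochondrial acetyl-CoA synthetase, averaged 51.1 ± 36.6 CPM in AAV-delta-mut-p53 tumours and 17.7 ± 6.91 CPM in AAV-Control tumours, a log2 fold change of 1.53 (edgeR FDR = 0.677). Acsf3, which activates malonate in mitochondria, averaged 7.67 ± 2.93 CPM in AAV-delta-mut-p53 tumours, against 4.09 ± 0.424 CPM in AAV-Control tumours. Acsm3, a medium-chain form, averaged 1.59 ± 1.05 CPM in AAV-delta-mut-p53 tumours, against 0.699 ± 0.404 CPM in AAV-Control tumours. Of 17 other acyltransferases, 8 were higher and 9 lower, and 0 passed. Lpcat2, which makes platelet-activating factor, had the smallest p, at 39.3 ± 35.2 CPM in AAV-delta-mut-p53 tumours and 11.9 ± 7.23 CPM in AAV-Control tumours (log2 fold change 1.72, edgeR FDR = 0.677). Its highest tumours were AAV-delta-mut-p53 3 and 6, at 104 and 47.0 CPM. Agpat4 and Gpat3, enzymes of phosphatidic acid and lysophosphatidic acid synthesis, had log2 fold changes of 1.37 and 1.58 and were highest in AAV-delta-mut-p53 2, at 21.6 and 6.88 CPM. When that tumour was left out, they were 0.90 (edgeR FDR = 0.659) and 1.09 (FDR = 0.680).

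Of 14 desaturases and elongases, 11 were higher and 3 lower, with 0 past the threshold. Scd1, the desaturase that makes oleic acid, had 627, 548, 4324, 181, 470 and 956 CPM in AAV-delta-mut-p53 1 to 6, against 156, 294 and 575 CPM in AAV-Control 1 to 3 (log2 fold change 1.79, edgeR FDR = 0.678). AAV-delta-mut-p53 3, the tumour with the most Acsl4, thus also held the most Scd1. Fads2, the desaturase that starts polyunsaturated acid synthesis, averaged 172 ± 90.6 CPM in AAV-delta-mut-p53 tumours and 137 ± 38.0 CPM in AAV-Control ones. Of 11 ether lipid genes, 6 were higher and 5 lower. Gnpat, the first acyltransferase of plasmalogen synthesis in peroxisomes, had 31.7, 54.6, 49.8, 45.3, 36.5 and 69.2 CPM in AAV-delta-mut-p53 1 to 6, against 27.9, 30.8 and 31.5 CPM in AAV-Control 1 to 3. These do not overlap, by a margin of less than 1 CPM, and the log2 fold change of 0.67 had an edgeR FDR of 0.677. Dhrs7b and Pcyt2, of the same pathway and of ethanolamine transfer, had log2 fold changes of 0.71 and 0.73.

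Of 13 phospholipases A2, which release fatty acids from membranes, 12 lay higher and 1 lower. Their median log2 fold change was 0.45, against 0.09 over all tested genes, and 0 were past the threshold. The direction leaned in part on AAV-delta-mut-p53 2. Without that tumour, Pla2g2d went from 1.71 to -0.22 and Pla2g16 from 0.28 to -0.15. Pla2g7, the platelet-activating factor hydrolase of macrophages, averaged 52.7 ± 36.8 CPM in AAV-delta-mut-p53 tumours and 17.6 ± 5.21 CPM in AAV-Control tumours (log2 fold change 1.58, edgeR FDR = 0.677). Pla2g15, the lysosomal form, averaged 19.2 ± 14.4 CPM in AAV-delta-mut-p53 tumours, against 8.45 ± 2.30 CPM in AAV-Control tumours. Both were highest in the pair AAV-delta-mut-p53 2 and 6, with 86.4 and 107 CPM of Pla2g7. Leaving out AAV-delta-mut-p53 2 gave log2 fold changes of 1.39 for Pla2g7 and 0.75 for Pla2g15, where all 9 tumours gave 1.19. The sum of the 12 macrophage markers, none at 0 throughout, was highest there as well, at 4302 and 1867 CPM. It was 546 to 1342 CPM in the other AAV-delta-mut-p53 tumours and 795 to 1159 CPM in AAV-Control tumours. Not every marker followed the sum. Cd14 was 23.3 and 19.2 CPM in that pair, against 166 CPM in AAV-delta-mut-p53 3. Mrc1 was 91.8 CPM in AAV-delta-mut-p53 6, against 208 CPM in AAV-Control 3. The part of macrophages in these levels was not tested. Pla2g4f, a cytosolic form, was highest in AAV-delta-mut-p53 6, at 6.64 CPM, and at most 2.48 CPM elsewhere.

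Of 15 thioesterases and acyl-CoA binding proteins, which undo or buffer the work of the synthetases, 8 were higher and 7 lower. Dbi, the acyl-CoA binding protein, had 210, 62.7, 143, 167, 87.4 and 568 CPM in AAV-delta-mut-p53 1 to 6, against 79.4, 98.3 and 146 CPM in AAV-Control 1 to 3, with a log2 fold change of 0.93 (edgeR FDR = 0.715). Of 16 genes of fatty acid uptake and of transcription factors for these pathways, 6 were higher and 10 lower. Fabp3, the fatty acid binding protein of muscle, had the largest log2 fold change, 4.47, with 91.7 CPM in AAV-delta-mut-p53 2, against at most 3.68 CPM in the other tumours. Without AAV-delta-mut-p53 2 it was 1.15 (edgeR FDR = 0.657). Ppargc1a, a coactivator of mitochondrial genes, was highest in AAV-delta-mut-p53 3 and 6, at 81.2 and 70.6 CPM, and was at most 17.5 CPM in the other 7 tumours. These are the tumours with the most Acsl4. Ppara and Pparg, receptors known to drive Acsl1 in liver and fat, averaged 2.97 ± 1.51 and 5.41 ± 4.27 CPM in AAV-delta-mut-p53 tumours, against 4.23 ± 1.85 and 9.28 ± 5.36 CPM in AAV-Control tumours. Nr1h2 and Nr1h3, the liver X receptors known to drive Lpcat3, averaged 45.3 ± 13.3 and 9.27 ± 3.15 CPM in AAV-delta-mut-p53 tumours, against 41.7 ± 19.7 and 9.30 ± 2.71 CPM in AAV-Control tumours.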

How the data were processed

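Per the labels' protocols, strand-specific libraries were made from total RNA of 9 frozen tumours. The authors deposited raw read counts per gene. The submitters' processing notes name STAR 2.6.0b, DESeq2 and GRCm38 without saying what each did. The counting step, its strand and its annotation were not given in the sources used here. Symbols and exon lengths came from GENCODE M21 on GRCm38, which may not be the authors' release, and matched 49326 identifiers. There were 0 columns without a sample.

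Genes kept by filterByExpr (minimum count 10) entered the 2-sided quasi-likelihood test of edgeR 4.0.16 (R 4.3.3), with TMM scaling and no covariate. P-values were adjusted over all 19606 genes by the Benjamini-Hochberg method, with an FDR threshold of 0.05. A positive log2 fold change means a higher level in AAV-delta-mut-p53 tumours than in AAV-Control tumours. DESeq2 1.42.0 and limma 3.58.1 (voom with quality weights) were alternatives. Correlations used exact 2-sided permutation over all 362880 orderings, with Benjamini-Hochberg adjustment over 28 pairs. TPM used the exon union per gene and no TMM scaling.

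The 8 genes and all lists were chosen with earlier results of these data known. Genes named are the 8, 3 of each pathway list by smallest p (mean of at least 1 CPM), 4 by likeness (mean of at least 5 CPM) and 3 neighbours on each side, and the text gives a part of them; 1 that the rule names is not reported here. Esr1, Fads2, Pla2g2d, Pla2g16, Ppara, Pparg, Nr1h2 and Nr1h3 were added after their values were seen. Nothing says that tumours came from separate animals, and the titles of AAV-delta-mut-p53 4 and 5 share a number, so p-values measure the spread between these samples, which may be partly technical. No pair of libraries was alike within sampling noise.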

Additional observations from a re-analysis of the deposited data

Results flagged for a closer look

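In AAV-delta-mut-p53 2, Acsl1 was 138 CPM and Acsl6 was 3.60 CPM. Each was the highest of its 6 AAV-delta-mut-p53 tumours and lay farther from the next tumour than Dixon's limit of 0.625 of the group's range allows. The 8 genes were examined in this way in the 6 AAV-delta-mut-p53 tumours, and 2 were past the limit. Chance passes about 1 in 20 groups of normally distributed values. CPM need not be so distributed and both flags fall on the same tumour, so the flags cannot be set against that rate. The next-highest values were 54.7 CPM for Acsl1, in AAV-delta-mut-p53 3, and 0.611 CPM for Acsl6, in AAV-delta-mut-p53 6. AAV-delta-mut-p53 2 is the tumour with the high muscle, fat and fibroblast marker sums, the last at 37300 CPM, and their part in these values was not tested.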

How the results depend on the processing

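Over 17 alternatives, 0 of the 7 tested genes were called. Acsl4 kept a positive log2 fold change (1.37 to 2.27, lowest FDR 0.351), as did Acsl5 (0.46 to 0.73, 0.408) and Lpcat3 (0.14 to 0.52, 0.679). The sign turned for Acsl1 without AAV-delta-mut-p53 2 (-0.011, range with each tumour left out -0.011 to 0.58), for Acsl3 under voom (0.025, left out -0.27 to 0.27), for Mboat1 under voom (-0.26, left out -0.43 to 2.34) and for Mboat2 under upper quartile scaling (-0.020), voom (-0.15) and no filter (-0.0043, left out -0.42 to 0.28). The cause was not tested. DESeq2 called 104 genes, 60 higher and 44 lower, where edgeR called 0 and gave 1387 an unadjusted p below 0.05. That number was 1922 under DESeq2 and 2038 under voom. It was 2443 with no filter, which tests more genes, and 874 to 2009 with each tumour left out. Among pathway genes it was 5, 9 under DESeq2, and 0 to 9 with each tumour left out. For Acsl1 and Mboat2, r was -0.90 (adjusted p = 0.110) by library size only and -0.94 (0.0542) with the tumours of shared number summed, by permutation, and -0.98 to -0.77 with each tumour left out. Pairs past the threshold were then 0, 0 and 0 to 2. The correlation settings, the length setting and the values of pathway genes without AAV-delta-mut-p53 2 and of neutrophil markers without Ltf were chosen after seeing the data. With the longest transcript as length, Acsl4 made up 31.6% and 17.3% of the synthetase sum in AAV-delta-mut-p53 and AAV-Control tumours. No paired analysis was possible because the labels give no shared replicate numbers. At 6 against 3 tumours with this spread, a missed threshold does not show equal levels.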

Other observations

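The 8 genes have 48 tested neighbours, 3 on each side, and 0 of them passed edgeR's test at FDR 0.05. An unadjusted p below 0.05 was found for 6 (12.5%, against 7.07% of all tested genes), of which 5 were lower in AAV-delta-mut-p53 tumours. Beside Nxt2 and Kcne1l at Acsl4, these were Cfap97 (log2 fold change -0.85) and Cenpu (-0.92) beside Acsl1, Adra2a (-1.80) on the chromosome of Acsl5 and Ptpn6 (0.84), a phosphatase of blood cells, beside Lpcat3.

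The 16 interferon-stimulated genes that were listed, none at 0 throughout, summed to 237, 1189, 1604, 1870, 229 and 1226 CPM in AAV-delta-mut-p53 1 to 6, against 389, 227 and 295 CPM in AAV-Control 1 to 3. AAV-delta-mut-p53 4, the highest of these, had 57.9 CPM of Acsl4, inside the control range. Its sum included 670 CPM of Ddx58, against 244 CPM in AAV-delta-mut-p53 3, so the order of these tumours depended on that gene. AAV-delta-mut-p53 3 and 6, with the most Acsl4, had the next highest sums. AAV-delta-mut-p53 2, at 1189 CPM, had 70.5 CPM of Acsl4, inside the control range. AAV-delta-mut-p53 1, at 237 CPM, had 147 CPM of Acsl4, above every control. The relation of these sums to Acsl4 was not tested.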
